A study of Mus musculus with 6 samples.

Results

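The CELF family (CUGBP and Elav-like family) comprises 6 genes of RNA-binding proteins, Celf1 to Celf6, of 18194 genes named on the array. They were read by the 18 probe sets, of 45101, whose single gene symbol in the platform annotation is one of these 6, each probe set by itself. Celf2 had 7 of them, Celf1 had 5, Celf4 had 3, and Celf3, Celf5 and Celf6 had 1 each. RNA was measured on Affymetrix mouse arrays after translating ribosome affinity purification (TRAP), which pulls tagged ribosomes and the mRNA they carry out of a tissue lysate. All mice carried the same bacterial artificial chromosome transgene (line and genotype Slc6a4 JD60), in which regulatory sequence of the serotonin transporter gene drives the tag, on a mixed FVB and c57/bl6j background. They were adults of both sexes aged 6 to 12 weeks, left otherwise untreated as far as the labels say. Brainstem and midbrain were dissected with the cerebellum removed, and each sample pooled 5 mice. The IP group was 3 samples of captured, ribosome-bound RNA labelled as serotonin neuron RNA, and the unbound group was the 3 matching samples of RNA left in the lysate, labelled as total tissue RNA. No mice without the transgene and no mock capture were analysed here, so RNA that binds the beads without tagged ribosomes has no measure in these values. IP and unbound samples differ in cell type and in ribosome binding at once, and these cannot be told apart. Nor, in bulk RNA, can fewer cells of a type be told apart from less of its RNA per cell.

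CELF proteins bind GU-rich stretches of RNA through RNA recognition motifs. In the nucleus they regulate alternative splicing, in which they oppose the muscleblind-like (MBNL) proteins on a number of exons, and in the cytoplasm they act on mRNA decay and translation. Celf1 and Celf2 are expressed in many tissues, whereas Celf3, Celf4, Celf5 and Celf6 are found mainly in the nervous system. Celf6 is the gene that the study's title names and whose disruption it concerns.

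Expression is given as log2 values, in which a difference of 1 is a 2-fold change. The authors normalised IP and unbound arrays separately, so every IP value below was moved by -0.23, the mean difference between the groups over 18 biotinylated hybridisation control probe sets. A probe set was tested where at least 3 of the 6 arrays reached a log2 value of 5, here the detection limit. It was called higher or lower in IP at an adjusted p under 0.05 (limma, Benjamini-Hochberg over all 18483 tested probe sets) and a change of at least 2-fold. Pearson's r across probe sets was at least 0.994 between arrays of a group and 0.924 to 0.932 between the groups. All 7 serotonin neuron markers measured were higher in IP, with Slc6a4 itself, the serotonin transporter, at 14.20 ± 0.12 (SD, n = 3) in IP against 9.05 ± 0.07 among the unbound arrays. With IP moved to the poly-A spike controls, 1 of the scalings below, 6 of the 7 were called higher. The scaling sets how many probe sets fall on each side: 1970 were higher and 8034 lower, whereas the counts were 4715 and 4342 after the 6 arrays were quantile normalised together, 4453 and 5136 with arrays centred on the median of detected probe sets, 6192 and 3936 with arrays centred on the median of all probe sets, and 72 and 16958 with IP moved to the poly-A spike controls. The median change of all tested probe sets was -0.73 under the biotin scaling, -0.48 without scaling, 0.07, 0.01 and 0.40 under the next 3, and -3.15 under the poly-A scaling. Changes of CELF probe sets are therefore also given relative to that median. All scalings but quantile normalisation move an array by a constant at most, which the median takes out. Only quantile normalisation could therefore move such a relative value by much.

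Of the 18 CELF probe sets 12 were tested, from 5 members, and each of the 12 reached the detection limit on all 6 arrays, so the filter did not fix their direction. Only Celf6 was called higher, 1 of 12 probe sets where 10.7% of all tested probe sets were. All 4 tested Celf2 probe sets and 2 of 3 tested Celf1 probe sets were called lower, making 6 of 12 where 43.5% of all tested probe sets were. In either direction 7 of 12 were called, where 54.1% of all tested probe sets were. The counts of the family thus lay near those of the array as a whole, and its members differed from each other. The 3 Celf4 probe sets and that of Celf5 were not called, and Celf3 reached the limit on 1 array only and was not tested. The median change of the 12 was -0.98, beside -0.73 for all tested probe sets. That median counts Celf2 and Celf1 by several probe sets each. With only the brightest probe set of each gene, the median of the 5 tested members was -0.26, beside -0.65 for all genes so read. The side on which the family lay thus depended on how its probe sets were counted.

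Promoter windows are shown first for the members at either end of that range, Celf6 and Celf2. The RefSeq table used (GRCm38.p6, mouse) lists windows of 300 bases, 250 before and 50 after an annotated start, and 20 of them belong to 5 members: 2 to Celf6, 5 to Celf2, 1 to Celf1, 7 to Celf3 and 5 to Celf5. The array does not tell which start a transcript came from. The lines below give both Celf6 windows, at chr9:59578087-59578386 and chr9:59589038-59589337 on the plus strand, and the Celf2 window richest in G and C, at chr2:6871986-6872285 on the minus strand. Capitals mark TGACGTCA, the cAMP response element, and GGGCGG or its reverse complement CCGCCC, the GC box, searched on both strands.
Celf6, upstream start: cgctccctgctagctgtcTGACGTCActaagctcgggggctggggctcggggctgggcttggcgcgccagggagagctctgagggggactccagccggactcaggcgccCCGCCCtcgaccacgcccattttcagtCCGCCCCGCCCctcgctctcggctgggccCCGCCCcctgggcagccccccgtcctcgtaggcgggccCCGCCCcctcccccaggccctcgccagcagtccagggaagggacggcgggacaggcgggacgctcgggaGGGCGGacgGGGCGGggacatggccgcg
Celf6, downstream start: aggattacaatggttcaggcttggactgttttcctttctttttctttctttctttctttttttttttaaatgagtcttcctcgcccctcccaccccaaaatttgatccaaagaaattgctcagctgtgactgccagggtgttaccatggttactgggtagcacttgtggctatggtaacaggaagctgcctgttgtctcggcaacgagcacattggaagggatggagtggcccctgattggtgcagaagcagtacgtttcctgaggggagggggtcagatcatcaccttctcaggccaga
Celf2: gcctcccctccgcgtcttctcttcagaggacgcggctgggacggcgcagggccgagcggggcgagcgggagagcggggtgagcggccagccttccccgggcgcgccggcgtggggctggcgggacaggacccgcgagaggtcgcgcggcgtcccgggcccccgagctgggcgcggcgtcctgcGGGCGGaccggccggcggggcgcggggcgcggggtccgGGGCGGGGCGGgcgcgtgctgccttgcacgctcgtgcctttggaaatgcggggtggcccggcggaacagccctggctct

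The upstream Celf6 window held 76.7% G and C and 31 CpG dinucleotides, the downstream one 48.0% and 4, and the Celf2 window shown 80.3% and 48, where the median over 32851 windows was 52.7% and 7. The other 4 Celf2 windows held 46.3% to 54.0% and 4 to 8, so the one shown is the extreme of the 5. The motifs searched were chosen with results of these data known. TGACGTCA begins 232 bases before the upstream Celf6 start. It was also found in 3 overlapping Celf3 windows and in no window of Celf1, Celf2 or Celf5, and 1.79% of all windows held it. The GC box was found 7 times in the upstream Celf6 window, overlapping copies counted, and in 10 of the 20 CELF windows against 35.7% of all windows. GATAA, the core of the site of the GATA factors that serotonin neurons express, and its reverse complement TTATC were in neither Celf6 window, in 9 of the 20 CELF windows and in 25.4% of all windows. Of those 9 windows 6 were of Celf3. The TATA box, TATAAA, was in 3 of the 20 against 13.6% of all windows. Several windows of a member overlap, so the same letters can be counted more than once and the shares are not of separate sequences. These are matches of letters only and were not set against binding data.

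Celf6 was read by 1 probe set, 1429790_at. Its values were 10.46, 10.56 and 10.71 in IP replicates 1 to 3, and 7.59, 7.95 and 7.69 in unbound replicates 1 to 3. Each IP array lay far above each unbound array, and the arrays of a group lay within 0.4 of each other. The means were 10.58 ± 0.13 and 7.74 ± 0.18 (SD, n = 3), a 7.13-fold difference (log2 change 2.83 ± 0.12 SE, limma adjusted p = 6.10e-06). Relative to the median of all tested probe sets the change was 3.56, and 98.9% of tested probe sets had a smaller one. Under quantile normalisation the relative change was 3.33, and 98.2% of tested probe sets had a smaller one. The other scalings could hardly move it, and over all 6 it ran to 3.63 and the share to 99.4%. The change itself ran from 0.48 under the poly-A scaling, where it was not called, to 3.86 with arrays centred on the median of all probe sets. No other probe set reads Celf6, so a second reading of the transcript is missing.

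**Figure D1:**
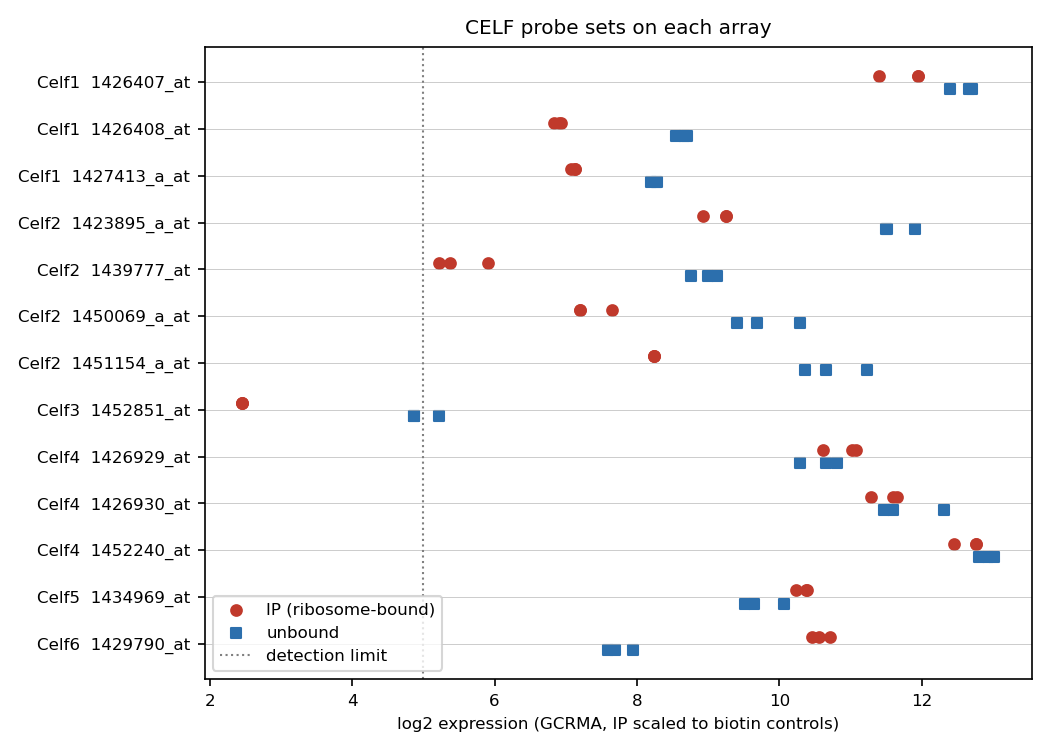
Log2 expression of the 12 tested CELF probe sets and of Celf3 on each array, with IP arrays as red circles, unbound arrays as blue squares and the detection limit as a dotted line; levels of different probe sets are not comparable. The Celf6 points part by nearly 3 log2 units with IP on the right, the Celf2 points part the other way on every probe set, and points of 2 of the 3 Celf4 probe sets overlap.

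Celf5, a brain member of the family, was read by 1434969_at at 10.24, 10.39 and 10.38 in IP and at 10.07, 9.52 and 9.64 in unbound RNA. The groups did not overlap, but the highest unbound array, replicate 1, came within 0.2 of the lowest IP array. The change was 0.60 ± 0.16 SE, 1.51-fold, and fell short of the 2-fold threshold (limma adjusted p = 0.0137). It was called higher under quantile normalisation (1.01) and with arrays centred on the median of detected probe sets (1.27) or of all probe sets (1.63), and was -1.76 and called lower under the poly-A scaling. Relative to all tested probe sets Celf5 lay 1.32 above the median, and from 0.94 (quantile normalisation) to 1.39 above it over the scalings.

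Celf4 marks excitatory neurons in particular among brain cells and is known for the seizures of mice that lack it. Its 3 probe sets were designed from the same GenBank entry, so they are not replicates. By 1452240_at it stood at 12.45, 12.77 and 12.76 in IP and at 13.02, 12.80 and 12.93 in unbound RNA, a change of -0.26 ± 0.12 SE (limma adjusted p = 0.0940). By 1426930_at the IP values were 11.28, 11.66 and 11.60 and the unbound values 12.32, 11.47 and 11.60, a change of -0.28 ± 0.25 SE (limma adjusted p = 0.325), with unbound replicate 1 far above its group. By 1426929_at they were 10.61, 11.02 and 11.08 against 10.29, 10.81 and 10.66, a change of 0.32 ± 0.19 SE (limma adjusted p = 0.167), with each IP array above the unbound array of the same mice. With the replicate number as a block the SE was 0.10 and the limma adjusted p 0.0355, still under 2-fold. None of the 3 was called, and the sign of their changes differed. The latter 2 probe sets overlapped between the groups. The direction of Celf4 also moved with the scaling: the first 2 probe sets were positive under both median scalings, the third was called higher at 1.35 with the median of all probe sets, and all 3 were called lower under the poly-A scaling. Relative to all tested probe sets the changes were 0.47, 0.44 and 1.05, and the first 2 turned to -0.45 and -0.29 under quantile normalisation.

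Celf3, which is largely confined to the nervous system, had its only probe set (1452851_at) at 2.45 on every IP array and at 5.22, 4.87 and 4.87 on the unbound arrays. It reached the detection limit on 1 array, unbound replicate 1, and was not tested. All its values but that of unbound replicate 1 give only a bound, and no fold is given. Without a filter it was the 1 further CELF probe set called lower.

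Celf1, the founding member, was isolated through its binding to CUG repeats and is known to bring the deadenylase Parn to GU-rich mRNAs. By its brightest probe set, 1426407_at, it stood at 11.40, 11.95 and 11.94 in IP and at 12.71, 12.40 and 12.67 in unbound RNA. The groups did not overlap, and the change of -0.83 ± 0.18 SE (1.78-fold, limma adjusted p = 0.00692) missed the 2-fold threshold. By 1426408_at, designed from the same GenBank entry, it was at 6.84, 6.93 and 6.91 against 8.71, 8.67 and 8.56, and fell by 1.75 on the log2 scale (3.37-fold, SE 0.08, limma adjusted p = 6.00e-06). By 1427413_a_at, of another entry, it was at 7.07, 7.13 and 7.13 against 8.29, 8.27 and 8.20, and fell by 1.14 (2.20-fold, SE 0.07, limma adjusted p = 2.13e-05). All IP values were below all unbound values on each of the 3. The call of 1427413_a_at was lost under both median scalings (-0.46 and -0.11), under quantile normalisation (-0.33) and with no shift of IP at all (-0.91), and that of 1426408_at was lost under quantile normalisation (-0.96) and with the median of all probe sets (-0.72), where the brightest probe set turned to 0.20. Relative to the median of all tested probe sets the 3 changes were -0.10, -1.03 and -0.41, and 47.5%, 27.9% and 40.1% of tested probe sets had a smaller one. Under quantile normalisation the brightest probe set moved to -0.91 relative to the median, with 27.1% of probe sets below it. Its 2 other probe sets were near the floor on every array.

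Celf2, a splicing regulator of brain, heart and lymphocytes, fell by every tested probe set. By 1423895_a_at it stood at 8.93, 9.24 and 9.24 in IP and at 11.50, 11.52 and 11.91 in unbound RNA, 5.65-fold lower in IP (log2 change -2.50 ± 0.15 SE, limma adjusted p = 2.39e-05). By 1451154_a_at it was at 8.24 on all 3 IP arrays and at 11.23, 10.36 and 10.66 on the unbound arrays, 5.71-fold lower (limma adjusted p = 1.12e-04). Of the 12 tested CELF probe sets 4 had the same value on more than 1 IP array, which narrows the IP spread behind their SEs and p-values. The former 2 probe sets come from the same GenBank entry.

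By 1450069_a_at, of another entry, Celf2 was at 7.20, 7.65 and 7.20 against 10.29, 9.40 and 9.69, 5.45-fold lower (limma adjusted p = 2.58e-04). By 1439777_at, of a further entry, it was at 5.37, 5.90 and 5.23 against 9.13, 8.75 and 9.00, 11.0-fold lower (log2 change -3.46 ± 0.20 SE, limma adjusted p = 2.01e-05). IP lay below unbound on every array by all 4, and each was called lower under all 6 scalings, with changes relative to the median of all tested probe sets between -2.83 and -1.65. The first 3 agreed closely in size (-2.50, -2.51 and -2.45), and the last was 1.01 lower than the least changed. The 3 other Celf2 probe sets, 1 of them from the entry of the first 2, were near the floor on every array and were not tested. Those 3 and the 2 such of Celf1 had values of 1.98 to 2.49.

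**Figure D2:**
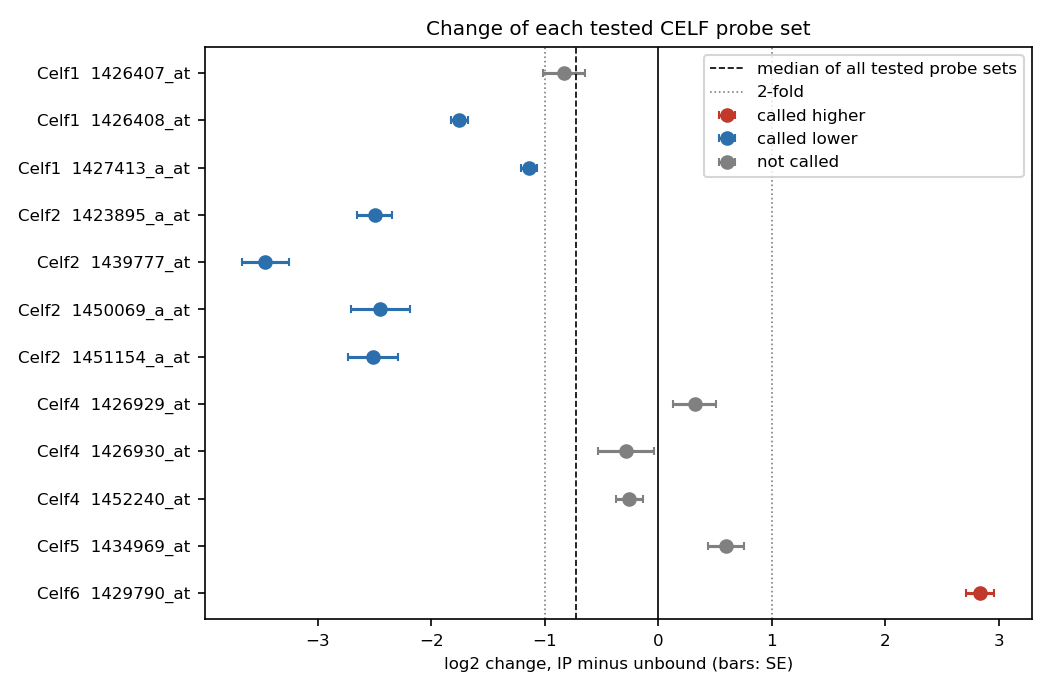
Log2 change, IP minus unbound, of each tested CELF probe set with its standard error, coloured by call, with the 2-fold threshold dotted and the median of all tested probe sets (-0.73) dashed. Celf6 stands alone on the right at 2.83, Celf4 and Celf5 lie near 0, Celf1 lies around the dashed line or to its left, and the 4 Celf2 probe sets lie between -3.46 and -2.45.

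Of the 12 tested CELF probe sets, IP lay above unbound on all arrays for 2 (Celf5 and Celf6), where 23.4% of all tested probe sets did, and below for 8, where 59.8% did, so that 10 of 12 were free of overlap where 83.2% of all tested probe sets were. Transcripts of other cells fell in IP beside Celf2 and, less so, Celf1. The brightest Celf1 probe set was not called and lay at -0.10 relative to the median of all tested probe sets under the biotin scaling. All 6 astrocyte markers were called lower, with a summed signal of 11.14 to 11.28 on the log2 scale in IP and 13.93 to 14.52 in unbound RNA, and so were all 5 measured oligodendrocyte markers, at 13.99 to 14.58 against 16.13 to 16.34. Of 5 microglial markers 4 were lower and Aif1 was higher, its unbound arrays under the limit, with sums of 7.49 to 7.51 against 10.55 to 10.75. Of 4 endothelial markers, all with IP means under the limit, Cldn5 and Slco1a4 were tested, both through the unbound arrays alone, which fixed their direction, and the sums were 5.06 on each IP array against 7.39 to 7.77. Of 7 markers of other neurons 6 were tested and all 6 were lower, with sums of 11.14 to 11.82 against 13.88 to 14.36. Several of these calls had their direction fixed by the filter, since only the unbound arrays reached the limit: those of Slc1a3, Aldh1l1 and Sox9 among astrocyte markers, of Cx3cr1 and C1qa among microglial markers and of Th among markers of other neurons. The counts stand beside 43.5% of all tested probe sets called lower. They also moved with the scaling: with arrays centred on the median of all probe sets 3 of 5 oligodendrocyte markers and 5 of 6 markers of other neurons were called lower, and with the median of detected probe sets 4 of 5 oligodendrocyte markers were. Cx3cr1 of microglia lay at the floor on every IP array, and the endothelial marker Pecam1 and the cholinergic marker Chat were far below the limit in both groups. The part of these cells in the Celf1 and Celf2 values was not tested.

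**Figure D3:**
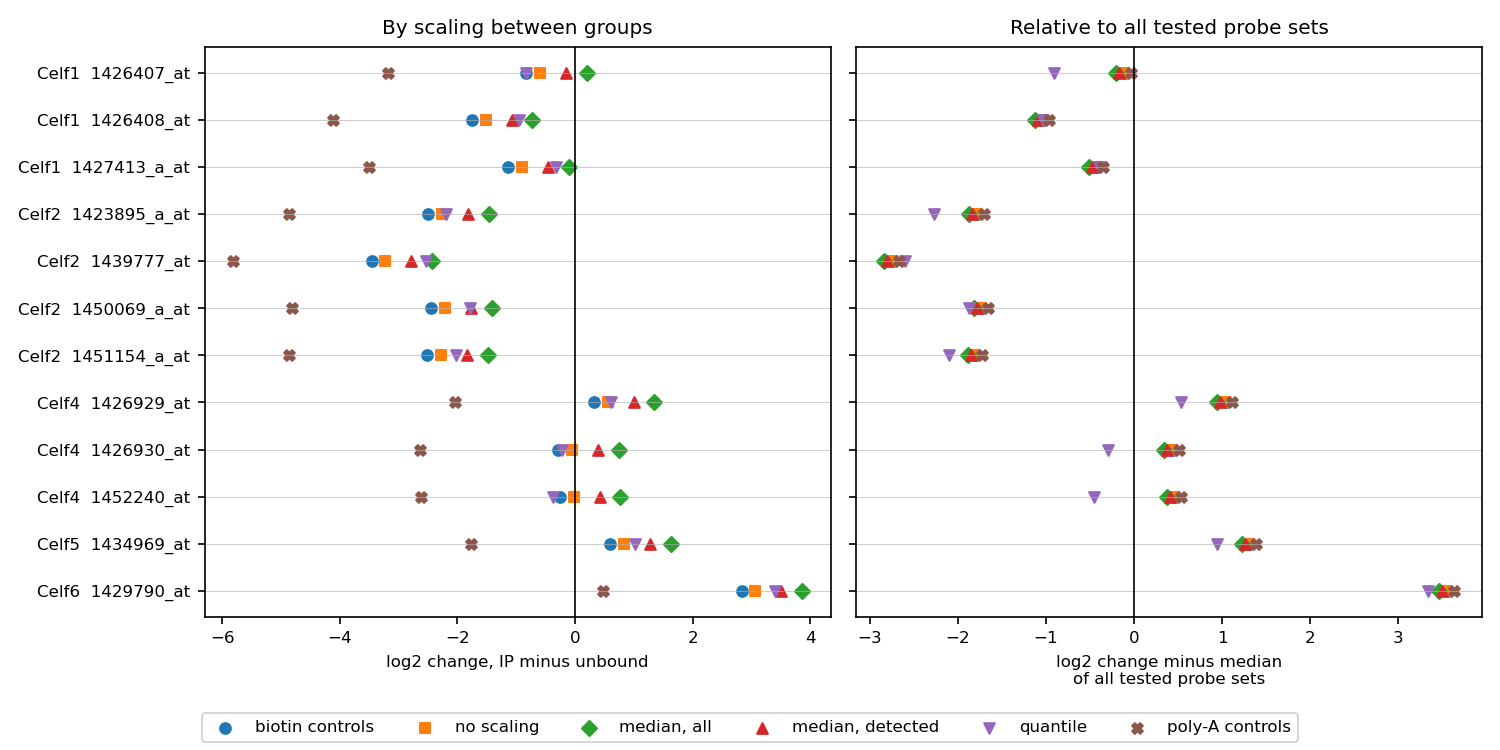
Log2 change of each tested CELF probe set under 6 scalings between the groups (left) and the same change minus the median of all tested probe sets under that scaling (right); each symbol is 1 scaling. On the left every row shifts with the scaling and Celf4, Celf5 and Celf1 1426407_at cross 0. On the right the order is Celf2, Celf1, Celf4, Celf5, Celf6 under all scalings but quantile normalisation, since a constant cannot change it. Under quantile normalisation, which can change the order, Celf1 and Celf4 overlap.

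Differences between members on the same array do not depend on a shift between the groups, because a constant added to an array cancels. Each member was read by its brightest tested probe set, and only the comparison of IP with unbound has a meaning, not the difference on 1 array. Celf6 minus Celf2 was 1.53, 1.32 and 1.47 in IP replicates 1 to 3 and -3.90, -3.57 and -4.22 in unbound replicates 1 to 3. All IP values were above all unbound values, and the gap of 5.33 on the log2 scale says that Celf6 rose against Celf2 by 40.3-fold from unbound to IP. Celf6 minus Celf1 averaged -1.18 ± 0.23 over the IP arrays and -4.85 ± 0.35 over the unbound arrays (SD, n = 3), a gap of 3.66. Celf6 minus Celf4 was -2.08 ± 0.11 and -5.17 ± 0.29 (SD, n = 3), a gap of 3.09. Celf6 minus Celf5 was 0.24 ± 0.09 and -2.00 ± 0.45 (SD, n = 3), a gap of 2.24. The groups were apart in each of the 4, with an exact two-sided permutation p of 0.1, the smallest that 3 against 3 samples allow, and 0.117 after Benjamini-Hochberg adjustment over the 7 pairs compared.

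The other 3 pairs set against each other the probe sets of 1 member whose changes lay farthest apart, so their gaps are read as a description only. Their exact two-sided permutation p-values (0.1 for Celf1, 0.1 for Celf2 and 0.2 for Celf4) entered the adjustment over the 7 pairs. Because the pairs were picked by their change, these p-values carry no weight. For Celf1, 1426407_at minus 1426408_at averaged 4.87 ± 0.27 on IP arrays against 3.95 ± 0.20 on unbound arrays (SD, n = 3). For Celf2, 1450069_a_at minus 1439777_at averaged 1.85 ± 0.11 on IP arrays against 0.84 ± 0.29 on unbound arrays (SD, n = 3). IP and unbound arrays did not overlap in either. For Celf4, 1426929_at minus 1426930_at overlapped between the groups, at -0.61 ± 0.08 and -1.21 ± 0.72 (SD, n = 3).

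**Figure D4:**
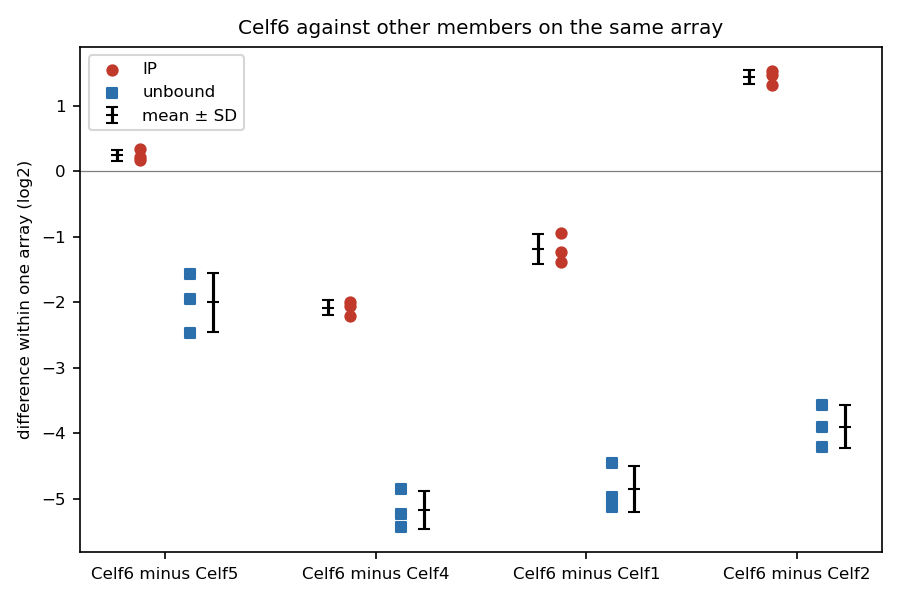
Difference in log2 expression between Celf6 and each other tested member on the same array, with 3 IP arrays (red circles), 3 unbound arrays (blue squares) and bars for mean ± SD. IP and unbound are apart in all 4 pairs, by 2.24 against Celf5 and by 5.33 against Celf2.

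The genes whose profile over the 6 arrays was most like that of Celf6, by Euclidean distance after each profile was centred on its own mean, were Hcn3, Nnmt, 9430038I01Rik, 1700037H04Rik and Gm1673, at distances of 0.22 to 0.26 among 16834 other probe sets with 1 symbol. Hcn3, a subunit of hyperpolarisation-activated channels, was at 8.95, 8.98 and 9.13 in IP and 6.10, 6.51 and 6.36 in unbound RNA, and Nnmt, nicotinamide N-methyltransferase, at 5.74, 5.98 and 6.02 against 3.06, 3.17 and 3.16. Nnmt and 9430038I01Rik lay under the detection limit on the unbound arrays. Nearest to Celf2 were Agps, Sorl1, Afap1, Lnpk and Kcnc1, at 0.11 to 0.22 among 16831. Sorl1, a sorting receptor, was at 8.99, 9.39 and 9.45 against 11.57, 11.53 and 11.94, and Agps, an enzyme of ether lipid synthesis, lay under the limit in IP. Over 6 arrays in 2 groups such likeness rests mostly on the size of the change.

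Genes that work with or against CELF proteins were read by the brightest probe set of each. Of the MBNL genes, Mbnl1 was 3.04-fold lower in IP, at 10.60 on all 3 IP arrays against 12.42, 11.86 and 12.34 (limma adjusted p = 1.91e-04), a call lost under both median scalings, and another of its probe sets was called higher at 1.03. Mbnl2 was 5.69-fold lower, at 10.48, 10.83 and 10.74 against 13.47, 13.00 and 13.10 (limma adjusted p = 2.70e-05), and was called lower under all 6 scalings. Mbnl3 was near the floor on every array.

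The ELAVL proteins, relatives of CELF that bind AU-rich and U-rich RNA, numbered 4 and were all tested. Elavl1, the widely expressed member, was 4.70-fold lower in IP (5.61 ± 0.04 against 7.84 ± 0.11, SD, n = 3) and was called so under all 6 scalings. Of the 4 tested Elavl1 probe sets 3 were called lower, with changes from -4.27 to -0.97. Elavl3 was 2.80-fold lower (8.35 ± 0.32 against 9.83 ± 0.06, SD, n = 3), a call lost under quantile and both median scalings. Of the 3 tested Elavl3 probe sets 2 were called lower, with changes from -2.47 to -0.41. Elavl2, at 12.72 ± 0.14 against 13.05 ± 0.25 (SD, n = 3), and Elavl4, at 11.29 ± 0.20 against 11.27 ± 0.17 (SD, n = 3), were not called. Elavl4 was called higher with the median of all probe sets (1.05). Under the poly-A scaling all 4 ELAVL genes were called lower, Elavl4 at -2.34. Whether either family differs from CELF was not tested.

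Among 25 genes of deadenylation and mRNA decay, 22 were tested, none was called higher and 12 were called lower, with a median of -1.18. Pan2, a deadenylase subunit, had the largest fitted change (-3.02), but it passed the filter through the unbound arrays alone, was at 2.26 on all IP arrays, under the detection limit, and has only a bound of at least 1.21-fold lower. Cnot6l, a catalytic deadenylase subunit named after its value had been seen, reached the limit on all 6 arrays and was 5.54-fold lower (limma adjusted p = 1.40e-05). Parn, named here for its tie to Celf1 after its value had been seen, was 3.46-fold lower in IP (limma adjusted p = 6.92e-05). Of 7 kinases and partners of CELF1, 6 were tested, 0 were higher and 3 lower (median -1.10), with Gsk3b, a kinase that regulates CELF1, 3.15-fold lower (limma adjusted p = 8.67e-04). Of 15 transcripts known as CELF targets, 12 were tested, 0 were higher and 8 lower (median -1.56). Tnnt2, the cardiac troponin T gene whose exon choice CELF proteins control, passed the filter through the unbound arrays alone and was at least 6.16-fold lower, with IP under the limit. Scn8a, a sodium channel gene tied to Celf4 and named after its value had been seen, was 11.1-fold lower, at 7.14, 7.19 and 7.19 against 10.67, 10.48 and 10.80 (limma adjusted p = 1.42e-06). The array reads transcript levels and not exon choice.

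These balances follow the scaling. With arrays centred on the median of all probe sets, decay genes stood at 4 higher and 4 lower, kinases and partners at 1 and 0, and targets at 1 and 3, and under the poly-A scaling all 22, 6 and 12 tested genes were lower. The share lower under the biotin scaling is to be read against 43.5% of all tested probe sets.

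**Figure D5:**
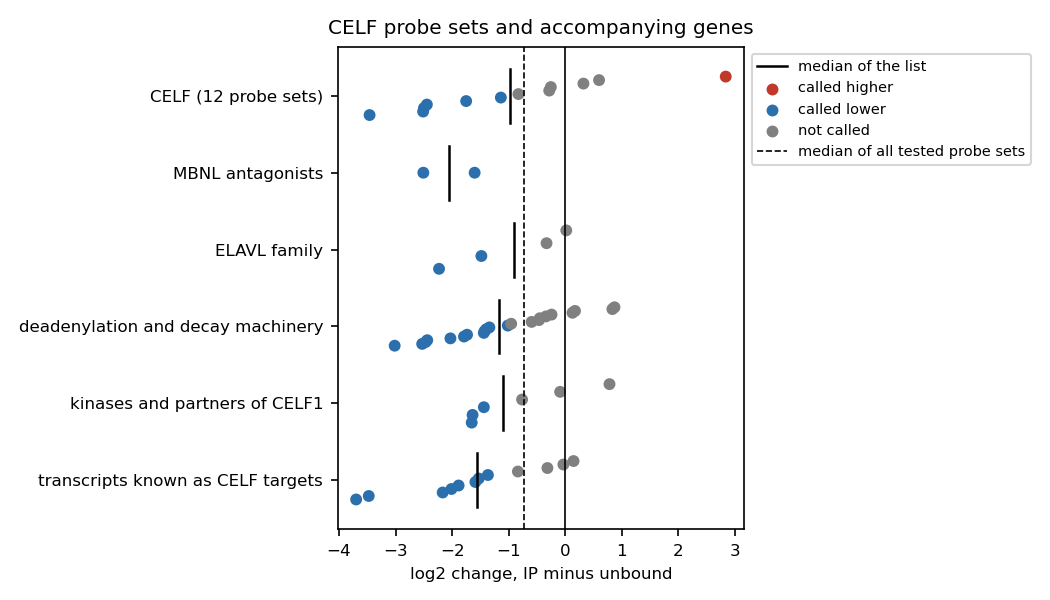
Log2 change, IP minus unbound, of the 12 tested CELF probe sets and of the tested genes of 5 accompanying lists, each point a probe set (CELF) or a gene by its brightest probe set, coloured by call, with the median of each row as a bar and that of all tested probe sets (-0.73) dashed. Celf6 is the only point called higher, and the bar of every row lies to the left of the dashed line. The CELF bar counts probe sets and the other bars count genes. By the brightest probe set per gene the CELF median was -0.26, to the right of the dashed line, beside -0.65 for all genes so read.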

How the data were processed

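RNA from 3 IP and 3 unbound samples (20 ng each) was amplified and hybridised, as the labels' protocols state. The authors ran GCRMA on each group by itself, per the submitters' processing notes, and deposited the results as log2 values, a scale read here from their range. The sources used here name no version of it. In IP 15.8% of probe sets averaging at least 5 had the same value on all 3 arrays, against 0.482% in unbound RNA. Such ties narrow the IP spread, and with it the SEs and p-values of these probe sets.

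The platform annotation gave 34958 of 45101 probe sets 1 gene symbol and 932 several, and left 9160 other than controls without one. Each probe set was fitted by itself on group alone with limma 3.58.1 (R 4.3.3; lmFit and eBayes, two-sided), checked on simulated data. Genes outside the family were read by their brightest probe set; named were all members of the MBNL and ELAVL lists, the most changed called member of other lists in each direction, Slc6a4, and the 5 nearest profiles to Celf6 and Celf2. Marker lists were outside that rule, and the other markers named, like Cnot6l, Parn and Scn8a, were chosen after their values were seen. Folds of at least a value count each dim array at no less than 5. Members and lists were chosen with earlier results of these data known. The number of arrays limits precision.

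Each unbound label names its replicate, so same-numbered samples share mice; their deviations from the group means correlated at 0.29, 0.20 and 0.12, while IP replicate 3 and unbound replicate 2 also correlated at 0.20. Alternatives were other scalings, filters, a replicate block, an intensity trend, 1 probe set per gene and leaving out each array.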

Additional observations from a re-analysis of the deposited data

How the results depend on the processing

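Scaling between the separately normalised groups moved the results most. The number of CELF probe sets called higher was 1, and became 3 with arrays centred on the median of all probe sets, 2 with the median of detected probe sets, 2 under quantile normalisation and 0 under the poly-A scaling, where Celf6 stood at 0.48 and was not called. The number called lower was 6, and became 11 under the poly-A scaling and 1 with the brightest probe set per gene, which tests 5 CELF genes. It was 5 without scaling and with the median of detected probe sets. With the median of all probe sets and under quantile normalisation it was 4, all of Celf2, and without a filter it was 7. Signs turned for Celf1 1426407_at (0.20 with the median of all probe sets), Celf4 1426930_at (0.74 and 0.39) and Celf4 1452240_at (0.77 and 0.42) with the medians of all and of detected probe sets, and for Celf4 1426929_at (-2.04) and Celf5 (-1.76) under the poly-A scaling. Over all probe sets, 1970 higher and 8034 lower became 6192 and 3936 (median of all), 4453 and 5136 (median of detected), 4715 and 4342 (quantile), 72 and 16958 (poly-A), 1104 and 4354 (brightest per gene, fewer features tested), and the lower count 5082 with the limit at 7 (fewer features tested). Within an array, quantile normalisation moved Celf6 minus Celf4 to 3.79, minus Celf1 to 4.24 and minus Celf2 to 5.60, and the mean of Celf1 probe sets gave 4.08; the cause of these moves was not tested. Leaving out each array kept 1 higher and 6 lower CELF probe sets and Celf6 within 2.76 to 2.94, with 1937 to 2008 higher and 7818 to 8074 lower over all. Celf6 minus Celf5, Celf4, Celf1 and Celf2 then ran within 2.00 to 2.45, 2.96 to 3.25, 3.53 to 3.86 and 5.17 to 5.50. The replicate block gave 1 higher and 6 lower CELF probe sets and 1978 and 8054 over all, with Celf6 at 2.83 (limma adjusted p = 9.41e-05), and changed no CELF call, though it took Celf4 1426929_at to a limma adjusted p of 0.0355; nor did the intensity trend.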
